A study of Mus musculus with 8 samples.

Results

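The genes described here are Myc, its dimer partner Max, the factors that compete with Myc for Max, and the genes that build ribosomes in the nucleolus. They were chosen by symbol, with earlier results of these data known. All 40 were found among the 16888 genes of the deposited table, 6 of them in the Myc and Max network and 34 in ribosome biogenesis. RNA was measured by sequencing in 8 pancreas samples from mice that had all received repeated cerulein, a peptide that overstimulates acinar cells and brings on acute pancreatitis. In 4 samples (CKO1 to CKO4) Anxa1, which encodes the phospholipid-binding protein annexin A1, had been deleted in myeloid cells, and 4 control samples (WT1 to WT4) carried Anxa1 flox/flox alleles. The labels give neither the Cre driver of the deletion, nor whether controls carried a Cre, nor the strain, age or dosing times, and no sample without cerulein was analysed here. They do not say whether replicates were separate animals, so p-values measure the spread between samples, which may be technical.

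Myc is a transcription factor that binds DNA only as a dimer with Max, typically at the E-box motif, and genes for ribosome production are among its best known targets. Mxd1, Mxd4, Mxi1 and Mnt also pair with Max and repress at the same motif. In the nucleolus RNA polymerase I transcribes the ribosomal RNA precursor, small nucleolar ribonucleoproteins (snoRNPs) guide its chemical modification, and separate sets of factors cut, fold and export the small and the large subunit. Acinar cells make large amounts of secreted protein and are rich in ribosomes, and Myc is known to be induced in the injured pancreas.

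Levels are RPKM, reads per kilobase of gene scaled to library depth, given as mean ± SD with n = 4 per group; where 4 values follow each other they are those of libraries 1 to 4. Changes are log2 differences of RPKM + 1, CKO minus WT, with SE and a Benjamini-Hochberg adjusted p from limma over the 8513 genes that reached 1 RPKM in 4 or more libraries, and the threshold was an adjusted p of 0.05. All 40 genes met that minimum. The library totals recovered from the values ran from 30469002 to 34359802 reads, at which 3 reads on a gene of 1 kb, taken as too few to show a level, amount to 0.0873 to 0.0985 RPKM. This limit covers counting error only. The 40 genes were covered by 75 reads (Mxd1) to 9630 reads (Ncl) per library. Anxa1 itself was at 4.84, 4.76, 5.21 and 7.13 RPKM in CKO, against 8.44, 14.7, 7.05 and 9.74 RPKM in WT (adjusted p = 0.0417 with limma). Its groups overlapped, and the call held when CKO4 or WT3 was left out but not when any other library was (adjusted p up to 0.108).

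The promoter sequences come first, because the E-box is the DNA element through which Myc and its competitors are known to act. RefSeq promoter windows (GRCm38.p6, the mm10 assembly) of 300 bases, from 250 before to 50 after the gene start, were found for 35 of the 40 genes. Myc, Npm1, Fbl, Rrp12 and Bop1 had none. The canonical E-box CACGTG reads the same on both strands. It was in the windows of 11 of these 35 genes (31.4%), against 12.8% of the 6869 tested genes with a window and 8.09% of all 27025 genes with a window. Among the Max network it was in Max, Mxd4 and Mnt. In ribosome biogenesis it was in 8 of 30 genes, of which 5 act on the small subunit and none on the snoRNPs. Those 8 matches are printed with up to 20 bases on either side, 5′ to 3′ on the strand of the gene, with the motif in capitals.
Mybbp1a (chr11:72441347-72441376, plus strand): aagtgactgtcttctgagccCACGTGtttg
Utp4 (chr8:106893635-106893680, plus strand): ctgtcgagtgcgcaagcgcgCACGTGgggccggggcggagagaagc
Utp20 (chr10:88826765-88826797, minus strand): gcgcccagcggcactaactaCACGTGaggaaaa
Wdr43 (chr17:71616212-71616257, plus strand): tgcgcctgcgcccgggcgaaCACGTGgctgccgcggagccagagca
Ltv1 (chr10:13193088-13193129, minus strand): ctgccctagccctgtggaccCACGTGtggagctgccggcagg
Tsr1 (chr11:74898084-74898129, plus strand): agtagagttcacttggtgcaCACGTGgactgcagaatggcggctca
Nop2 (chr6:125131803-125131848, plus strand): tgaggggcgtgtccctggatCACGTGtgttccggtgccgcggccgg
Pes1 (chr11:3963957-3964002, plus strand): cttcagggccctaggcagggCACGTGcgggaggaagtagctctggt
In 7 of these 8 the motif lay just after the RefSeq gene start, and in Nop2 it began upstream, at position -60.

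Ncl and Nhp2 are the ribosome biogenesis members that fell in CKO (below), and their windows are printed whole for comparison, with the 50 bases that follow the RefSeq gene start in capitals. For Ncl that start lies upstream of the GENCODE M21 gene, whose coordinates are given below, so its capitals precede the gene as GENCODE annotates it.
Ncl (chr1:86359406-86359705, minus strand): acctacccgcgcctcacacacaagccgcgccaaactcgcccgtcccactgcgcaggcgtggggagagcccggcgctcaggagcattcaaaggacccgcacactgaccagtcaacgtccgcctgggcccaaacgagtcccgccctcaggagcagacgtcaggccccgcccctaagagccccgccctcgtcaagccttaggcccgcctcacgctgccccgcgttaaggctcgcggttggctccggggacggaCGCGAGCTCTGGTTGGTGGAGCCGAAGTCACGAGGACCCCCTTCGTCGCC
Nhp2 (chr11:51619523-51619822, plus strand): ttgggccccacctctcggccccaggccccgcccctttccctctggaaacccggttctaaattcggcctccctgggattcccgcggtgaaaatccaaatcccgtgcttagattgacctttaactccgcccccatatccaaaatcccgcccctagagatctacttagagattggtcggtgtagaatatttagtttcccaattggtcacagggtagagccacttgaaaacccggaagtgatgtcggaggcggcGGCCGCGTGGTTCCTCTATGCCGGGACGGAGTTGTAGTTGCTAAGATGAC
Neither window holds CACGTG in these letters, and Ncl has 33 CG dinucleotides against 18 in Nhp2. A match to the motif describes the sequence and is no evidence of binding.

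The comparison of CKO with WT describes how these genes differed between the groups of cerulein-treated pancreas samples. Myc rose about 2-fold, and it was 1 of 40 genes that rose, against 1.42% of all tested genes. Of the 40, 3 fell (Mxd1, Ncl and Nhp2), against 5.74% of all tested genes, and 36 did not pass. The 4 genes that passed in either direction compare with 7.17% of all tested genes. At an unadjusted p under 0.05, 2 of the 40 were higher and 9 lower, against 4.6% and 22.7% of all tested genes. None of the 34 ribosome biogenesis genes rose in limma or in limma-voom on recovered reads, and 1 (Nop14) was higher at an unadjusted p under 0.05. Their median log2 change was -0.05, with 19 below 0, while the median of all tested genes was -0.12, with 70.4% below 0. The 32 ribosome biogenesis genes that did not pass had 95% intervals of the log2 change reaching at most 0.73 upward (Nop14) and -0.62 downward (Nip7), and in 24 of them the whole interval lay between -0.5 and 0.5. These intervals are for RPKM + 1, which shrinks the changes of low genes. The change of Wdr12 was -0.22 on this scale and -0.41 with a pseudocount of 0.1.

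**Figure D1:**
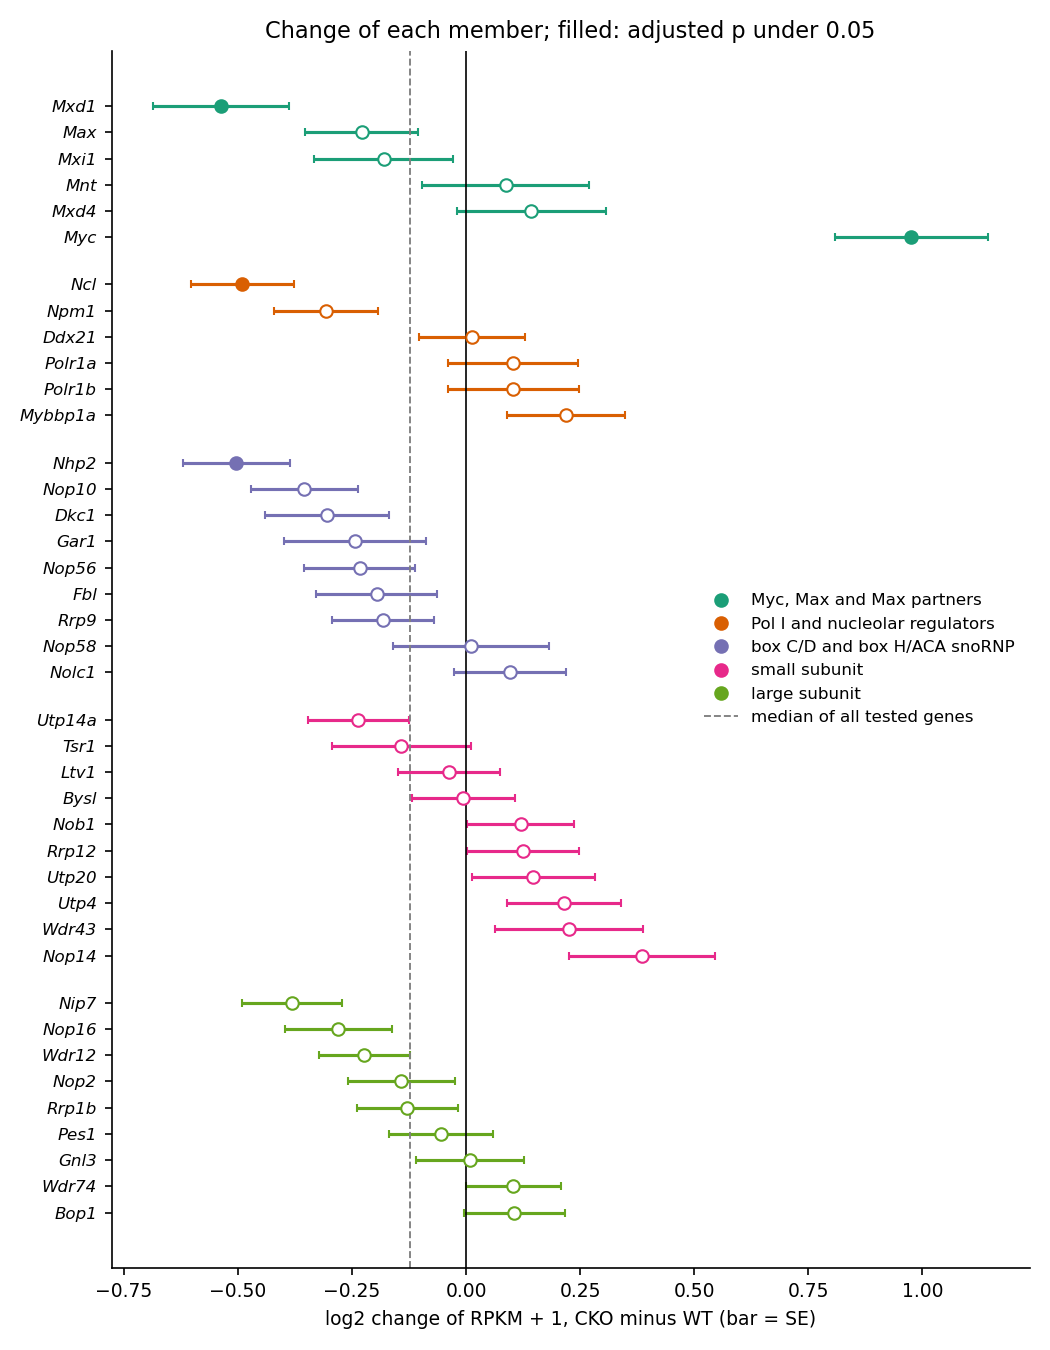
Log2 change of RPKM + 1 (CKO minus WT, horizontal axis) of the 40 genes by role, with bars for SE; filled points passed the threshold and the dashed line is the median of all tested genes (-0.12). Myc stands at 0.98, and the other 39 genes lie between -0.54 and 0.39.

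Myc (chr15:61985391-61990374, plus strand) was at 14.8, 19.9, 19.4 and 25.0 RPKM in CKO, against 11.5, 7.06, 10.3 and 9.34 RPKM in WT. Every CKO library lay above every WT library, a separation in that direction seen in 2.46% of all tested genes. The mean level was 19.8 ± 4.16 against 9.54 ± 1.87 RPKM, a 2.07-fold difference (log2 change 0.98, SE 0.17, limma adjusted p = 0.00808). The call held without each of the 8 libraries in turn, with log2 changes of 0.85 to 1.10 and an adjusted p of at most 0.0292.

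Mxd1 (chr6:86647042-86669161, minus strand), a Max partner that replaces Myc as cells differentiate, moved the other way. It was at 0.470, 0.687, 1.03 and 1.22 RPKM in CKO, against 1.63, 2.22, 1.57 and 1.27 RPKM in WT. The groups did not overlap, although the highest CKO and the lowest WT library nearly met. It fell by 0.54 on the log2 scale (SE 0.15, limma adjusted p = 0.0484), or by 0.95 with a pseudocount of 0.1, and the mean in WT was 1.97 times that in CKO. This call stood at the threshold. It held when CKO3 was left out (0.0477), was lost when any other library was (adjusted p 0.0511 to 0.123), and was lost under each other setting in which the gene was tested (0.0516 to 0.102).

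Max, the common partner, was at 8.34, 8.35, 8.38 and 6.31 RPKM in CKO, against 8.97, 8.69, 9.02 and 10.7 RPKM in WT. All CKO libraries lay below all WT libraries, a separation in that direction seen in 16.2% of all tested genes, but Max did not pass (log2 change -0.23, SE 0.12, adjusted p = 0.251 with limma). Mxd4 had the highest RPKM of the competitors, at 18.8 ± 2.18 against 17.2 ± 3.94 RPKM (limma adjusted p = 0.594). Mxi1 was at 1.73 ± 0.422 against 2.10 ± 0.532 RPKM and the broadly expressed repressor Mnt at 1.78 ± 0.736 against 1.57 ± 0.366 RPKM, with overlapping groups and adjusted p of 0.462 and 0.795. The summed level of Mxd1, Mxd4, Mxi1 and Mnt was 19.0, 24.6, 24.6 and 24.4 RPKM in CKO, against 23.1, 24.5, 26.3 and 16.3 RPKM in WT, most of it from Mxd4.

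**Figure D2:**
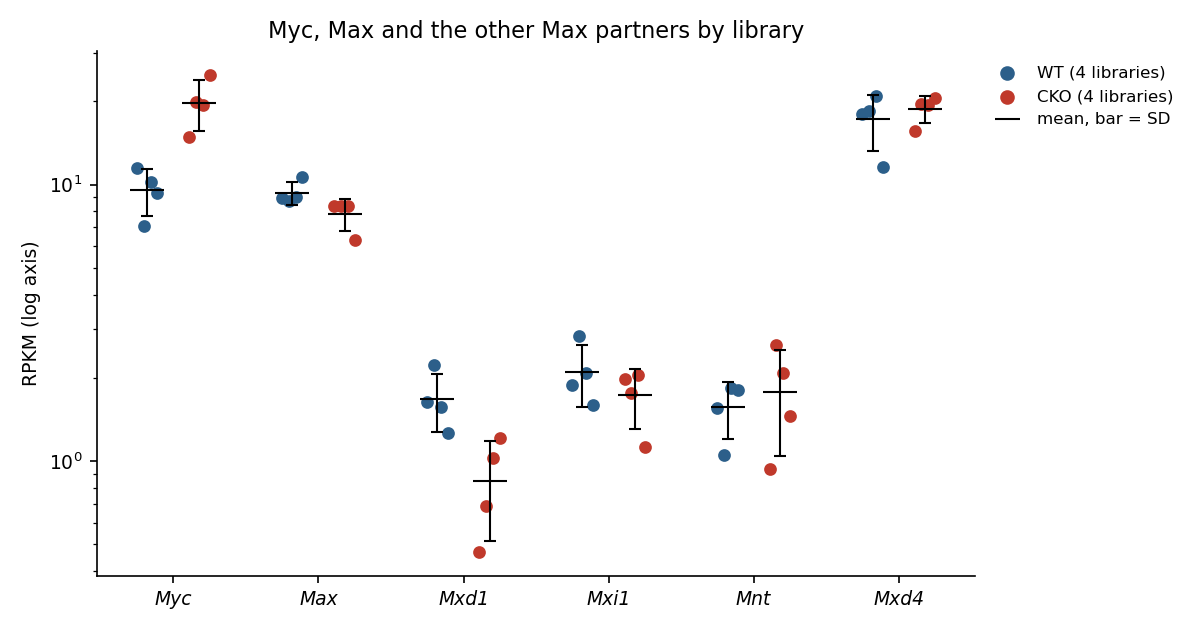
Level in RPKM (log axis) of Myc, Max and the 4 other Max partners in each library; horizontal marks are group means and bars are SD (n = 4). The groups are apart for Myc (14.8 to 25.0 against 7.06 to 11.5 RPKM), Max and Mxd1, and overlap for Mxi1, Mnt and Mxd4.

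Relative to its partner, Myc was at 1.78, 2.39, 2.31 and 3.96 times the Max level in CKO, against 1.28, 0.812, 1.14 and 0.876 times in WT, in RPKM. The ratio of Myc to Mxd1 was 18.8 to 31.5 in CKO and 3.17 to 7.37 in WT, and that of Myc to Mxd4 was 0.946 to 1.21 against 0.384 to 0.805. These ratios rest on the lengths by which the authors divided. Each of the 3 ratios was higher in every CKO library than in every WT library. For Max and Mxd1 this had to follow, because Myc was higher and both partners were lower in every CKO library. Those ratios therefore add nothing to the separate levels. CKO4 had both the highest Myc and the lowest Max. The ratios are descriptions and were not tested.

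Among the genes for RNA polymerase I and nucleolar regulators, 1 of 6 fell and none rose. Ncl (chr1:86344719-86359400, minus strand), which encodes nucleolin, an abundant nucleolar RNA-binding protein, was at 22.0, 27.5, 26.7 and 21.0 RPKM in CKO, against 33.9, 33.6, 33.96 and 36.0 RPKM in WT. The WT libraries sat close together and all CKO libraries lay below them. The mean was 24.3 ± 3.26 against 34.4 ± 1.12 RPKM (log2 change -0.49, SE 0.11, limma adjusted p = 0.0262). The call was lost without CKO4 (0.0554), WT1 (0.0716), WT2 (0.0586), WT3 (0.0574) or WT4 (0.0641), and it held with limma-voom on recovered reads, median centring, scaling without digestive enzymes and the length trend removed.

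Npm1, the histone chaperone nucleophosmin, had the highest RPKM of the 40, at 109 ± 12.9 against 134 ± 11.4 RPKM. That rank rests on the lengths by which the authors divided. Npm1 was lower in every CKO library but did not pass (log2 change -0.31, SE 0.11, adjusted p = 0.105 with limma). The polymerase subunits Polr1a (3.16 ± 0.459 against 2.90 ± 0.634 RPKM) and Polr1b (6.16 ± 0.796 against 5.70 ± 1.13 RPKM) had overlapping groups, with a log2 change of 0.10 each and adjusted p of 0.676 and 0.674. Ddx21, a helicase that links polymerase I transcription to processing, was at 26.5 ± 3.45 against 26.1 ± 1.81 RPKM. Mybbp1a, a nucleolar protein that restrains rRNA synthesis, was at 37.4 ± 4.60 against 32.1 ± 4.38 RPKM (0.22 on the log2 scale, adjusted p = 0.293). WT4 was the lowest library for Polr1a, Polr1b and Mybbp1a and the highest for Npm1 and Ncl.

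The snoRNP genes had the lowest median of the 5 roles, -0.23, with 7 of 9 below 0 (77.8%, against 70.4% of all tested genes), of which 1 fell. With the length trend removed the median was -0.035 and 5 of 9 were below 0. Nhp2 (chr11:51619735-51623714, plus strand), a core protein of the box H/ACA snoRNPs that direct pseudouridine formation, was at 21.7, 25.8, 22.4 and 18.9 RPKM in CKO, against 30.2, 32.0, 29.5 and 35.4 RPKM in WT. No CKO library reached the lowest WT library. The mean was 22.2 ± 2.81 against 31.8 ± 2.66 RPKM (log2 change -0.50, SE 0.12, limma adjusted p = 0.0266). The call was lost without CKO4 (0.0576), WT1 (0.0652), WT2 (0.0650) or WT4 (0.0670), and also with median centring (0.0590), no filter on low values (0.0501) and after removal of the length trend (log2 change -0.28, 0.0792).

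The other box H/ACA proteins did not pass. Nop10, the smallest of them, was at 18.1, 16.8, 17.9 and 19.4 RPKM in CKO, against 19.5, 26.2, 22.1 and 26.1 RPKM in WT. It did not pass in limma (-0.35 on the log2 scale, SE 0.12, adjusted p = 0.0813). Its groups were separated only narrowly, by CKO4 and WT1. Dkc1, the pseudouridine synthase dyskerin, was at 4.11 ± 0.794 against 5.27 ± 0.534 RPKM (-0.31 on the log2 scale, adjusted p = 0.171), and Gar1 at 9.59 ± 1.36 against 11.6 ± 2.51 RPKM (-0.24, adjusted p = 0.333). With the length trend removed the log2 change was -0.11 for Nop10, -0.18 for Dkc1 and -0.035 for Gar1. In the box C/D snoRNPs, which direct ribose methylation, the methyltransferase Fbl was at 19.4 ± 3.52 against 22.1 ± 1.08 RPKM, Nop56 at 6.73 ± 0.894 against 8.07 ± 0.763 RPKM and Nop58 at 24.8 ± 4.39 against 24.7 ± 5.25 RPKM, with adjusted p of 0.361, 0.235 and 0.977. Rrp9, a protein of the U3 snoRNP, was at 8.40 ± 0.606 against 9.68 ± 0.902 RPKM (adjusted p = 0.309). Nolc1, a snoRNP assembly chaperone, was at 8.47 ± 1.39 against 7.79 ± 0.304 RPKM (adjusted p = 0.640).

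The small subunit genes had the highest median of the roles, 0.12, with 6 of 10 above 0. None passed in limma or limma-voom, and 1 was higher at an unadjusted p under 0.05. Nop14, a part of the early pre-40S particle, had the largest positive change of the ribosome biogenesis genes. It was at 6.51, 11.0, 9.88 and 7.71 RPKM in CKO, against 7.21, 5.87, 7.33 and 5.25 RPKM in WT, so that CKO1 fell among the WT libraries (log2 change 0.39, SE 0.16, limma adjusted p = 0.146). It passed with median centring (0.49, adjusted p = 0.0379) and after removal of the length trend (0.52, adjusted p = 0.0351). Wdr43, Utp4 and Utp20, which assemble early on the rRNA precursor, had log2 changes of 0.23, 0.21 and 0.15 (adjusted p of 0.389, 0.288 and 0.504). Wdr43 was at 11.7 RPKM in CKO1 and at 17.1 to 18.2 RPKM in the other CKO libraries.

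None of the late small subunit factors passed. Bysl was at 5.89 ± 0.642 against 5.90 ± 0.344 RPKM, the assembly factor Ltv1 at 12.9 ± 1.20 against 13.2 ± 1.04 RPKM, the endonuclease Nob1, which trims 18S rRNA, at 16.6 ± 2.11 against 15.1 ± 1.15 RPKM, and the export factor Rrp12 at 4.52 ± 0.452 against 4.07 ± 0.583 RPKM. Their log2 changes ran from -0.04 (Ltv1) to 0.12 (Nob1 and Rrp12), with 95% intervals reaching 0.37 for Nob1 and 0.39 for Rrp12, and Nob1 was at 0.31 (adjusted p = 0.0602) with the length trend removed. Tsr1 was at 15.1 ± 2.65 against 16.7 ± 2.59 RPKM (adjusted p = 0.570), and 32.3% of its annotated exon bases overlap exons of Srr on the opposite strand, so reads of the genes cannot be told apart without strand. Utp14a was at 5.91 to 7.24 RPKM in CKO and 7.46 to 8.79 RPKM in WT (-0.24 on the log2 scale, adjusted p = 0.193), the only small subunit gene lower in every CKO library.

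The large subunit genes had a median of -0.13, near that of all tested genes, and 0 of 9 passed in limma or limma-voom, with 3 lower at an unadjusted p under 0.05 (Nop16, Wdr12 and Nip7). Nip7, a factor of the pre-60S particle, came nearest at 5.46, 6.37, 5.99 and 5.37 RPKM in CKO, against 8.60, 7.12, 7.77 and 7.95 RPKM in WT. The groups did not overlap (log2 change -0.38, SE 0.11, limma adjusted p = 0.0558), and with a minimum of 5 RPKM it passed (0.0485). Nop16 was at 10.5 ± 1.32 against 12.9 ± 1.01 RPKM (-0.28 on the log2 scale, adjusted p = 0.146) with overlapping groups.

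None of the subunits of the PeBoW complex, which matures the large subunit rRNA, passed. They were at 20.3 ± 2.23 against 18.7 ± 1.18 RPKM (Bop1), 21.6 ± 2.40 against 22.5 ± 1.71 RPKM (Pes1) and 0.879 ± 0.159 against 1.19 ± 0.0686 RPKM (Wdr12). The log2 changes were 0.11, -0.06 and -0.22 (adjusted p of 0.563, 0.787 and 0.173), and only Wdr12 was lower in every CKO library. The rRNA methyltransferase Nop2, Rrp1b, Wdr74 and the nucleolar GTPase nucleostemin (Gnl3) had log2 changes of -0.14, -0.13, 0.10 and 0.01. Of the settings tried, Wdr74 passed only after removal of the length trend (0.31, adjusted p = 0.0452).

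**Figure D3:**
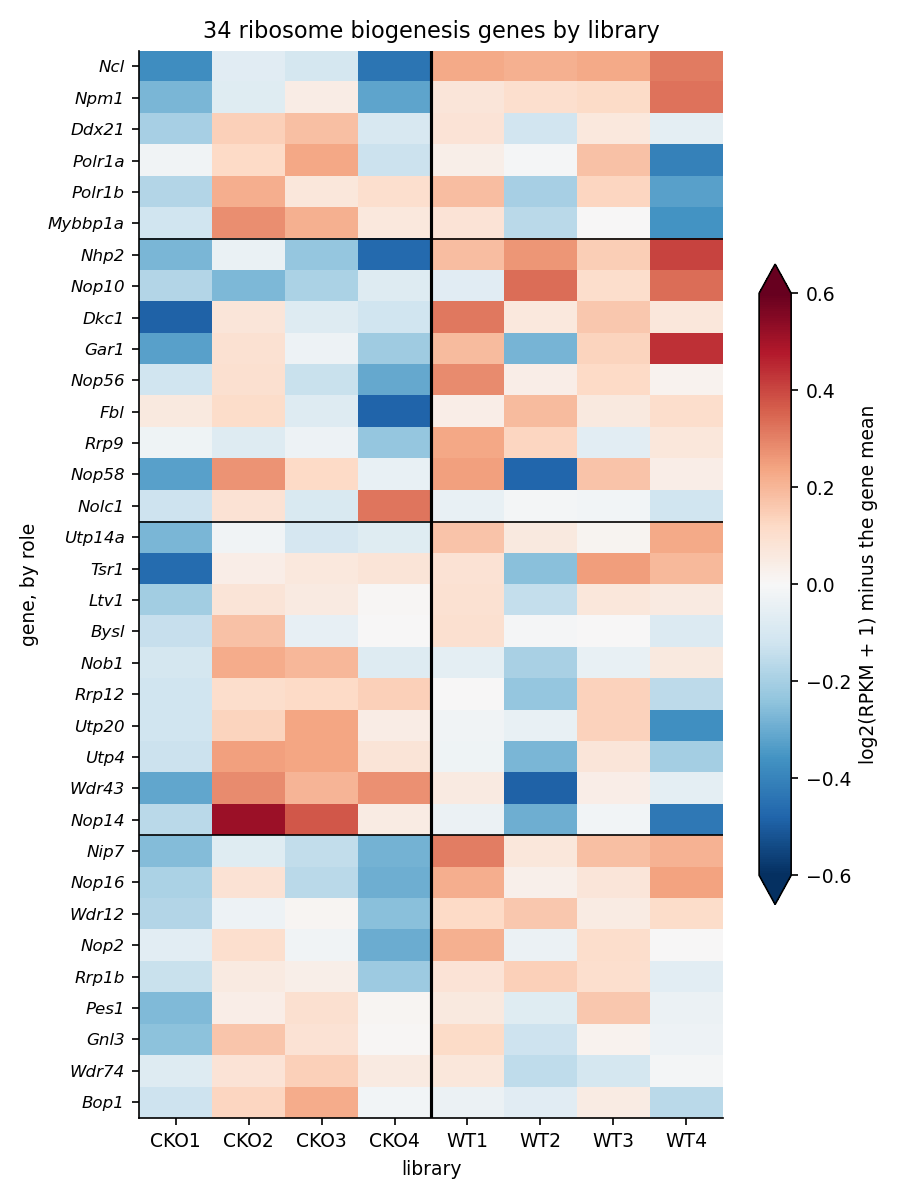
Deviation of log2(RPKM + 1) from the mean of each gene in each library (columns) for the 34 ribosome biogenesis genes (rows, by role, colour scale ending at -0.6 and 0.6). CKO1 is blue in most rows (median -0.17), and Ncl, Nhp2 and Nip7 are blue in all CKO libraries and red in all WT libraries.

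The libraries of a group differed from each other in these genes. CKO1 was the lowest CKO library for 21 of the 34 ribosome biogenesis genes and CKO2 the highest for 21. Their median deviation from the gene mean on the log2 scale was -0.17 in CKO1 and 0.09 in CKO2, against -0.17 and 0.00 over all tested genes. Among the controls WT2 was the lowest for 17 of the 34 and WT1 the highest for 14.

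Change followed gene length over the whole table. The Spearman correlation of log2 change with the length implied by the values was 0.30 over 8506 tested genes and 0.12 over the 40 genes, both across genes that share the same 8 libraries; the difference between them was not tested. The 11 genes under 2000 bases, among them Nhp2, Nop10 and Npm1, had a median log2 change of -0.20, and the 29 longer ones -0.01. A split of the 40 at their median length gave a smaller contrast. The 20 shorter genes then had a median of -0.09 and the 20 longer ones -0.03, with 11 below 0 in each set. Ncl is long by this measure (8770 bases) and Nhp2 short (1008 bases). After removal of the length trend Ncl passed and Nhp2 did not. That setting also took out the shift of each library, and the median change of all tested genes went from -0.12 to -0.0089. Nhp2 did not pass with median centring either (limma adjusted p = 0.0590). The part of length alone was therefore not separated from that shift.

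**Figure D4:**
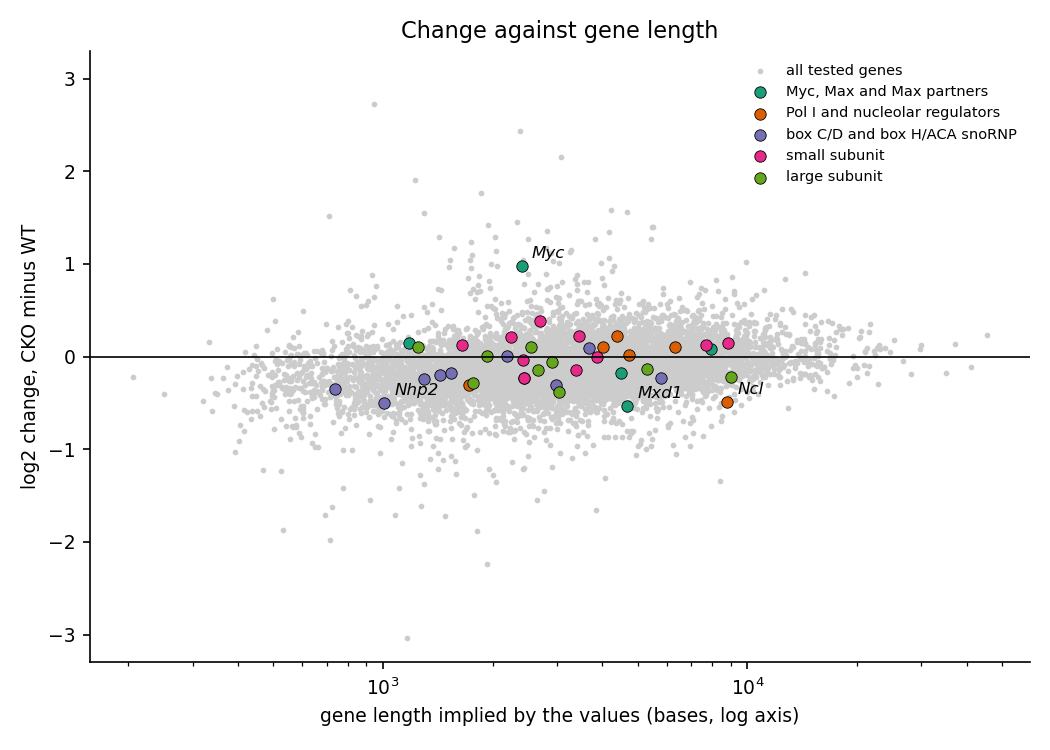
Log2 change (CKO minus WT) against the gene length implied by the values (bases, log axis), all tested genes in grey and the 40 genes in colour by role. Grey points drift upward with length (Spearman 0.30), Myc lies at 0.98, and Nhp2 and Ncl lie near -0.5 at 1008 and 8770 bases.

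The 11 genes with a CACGTG in the promoter window had log2 changes from -0.23 to 0.23, median 0.09, with 6 above 0. The 24 without it had changes from -0.54 to 0.39, median -0.18, with 9 above 0. None of the 11 passed, and Mxd1, Ncl and Nhp2 are among the 24. The split also follows role. Small subunit genes (median 0.12) are more frequent among the 11, and the snoRNP genes with a window (role median -0.23) are all among the 24. Motif and role were not separated, and the difference was not tested.

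Of 168 further genes of the pathway, 163 were in the table and 152 were tested; 0 rose and 7 fell by limma, with a median log2 change of -0.14 and 70.4% below 0, the same share as over all tested genes. By limma 1.42% of all tested genes rose and 5.74% fell. At an unadjusted p under 0.05, 1 pathway gene was higher and 38 were lower, against 4.6% and 22.7% of all tested genes. With limma-voom 0 were called higher and 3 lower, against 100 and 325 of all 8506 genes tested. In RNA polymerase I and its initiation factors 1 of 13 fell, Ubtf, the factor that opens rDNA for transcription, at 5.90 ± 0.864 against 8.35 ± 0.555 RPKM. In the small subunit list 2 of 46 fell, Imp3 (9.73 ± 1.73 against 14.6 ± 0.730 RPKM), which joins U3 to the precursor, and Dcaf13 (11.2 ± 1.23 against 16.1 ± 2.16 RPKM). In the large subunit list 1 of 47 fell, Las1l, a nuclease that removes a spacer from the precursor. Las1l was at 9.84, 11.5, 11.98 and 9.06 RPKM in CKO, against 18.1, 16.8, 19.1 and 14.8 RPKM in WT (log2 change -0.65, limma adjusted p = 0.0123), with no overlap between the groups. Its call held without each library in turn.

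Among the exosome and RNase MRP genes 2 of 16 fell, the exosome subunit Exosc5 (9.65 ± 0.330 against 13.3 ± 1.30 RPKM) and Pop4 (1.27 ± 0.322 against 2.36 ± 0.212 RPKM). At an unadjusted p under 0.05 by limma, 8 of these 16 were lower and 0 higher, against 22.7% and 4.6% of all tested genes. Their median log2 change of -0.28 was the lowest of the pathway lists, with 81.2% below 0. That difference from all tested genes was not tested. Of the other Myc network factors 0 of 5 passed by limma, with 1 at an unadjusted p under 0.05, the E-box factor Usf1 (5.56 ± 1.021 against 7.61 ± 0.580 RPKM, adjusted p = 0.0763). Of 25 known Myc targets outside ribosome biogenesis 0 rose and 1 fell, with 20 below 0 (80.0%, against 70.4% of all tested genes). That gene was Odc1, the rate-limiting enzyme of polyamine synthesis, at 80.2, 91.7, 88.8 and 98.1 RPKM in CKO, against 111, 112, 116 and 121 RPKM in WT (log2 change -0.36, SE 0.10, limma adjusted p = 0.0484). The groups did not overlap, but the call was lost without any 1 of the 8 libraries (adjusted p 0.0501 to 0.112). Those of Ubtf, Dcaf13, Imp3, Exosc5 and Pop4 were also lost without some libraries (up to 0.118), and with median centring or the length trend removed (up to 0.187).

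**Figure D5:**
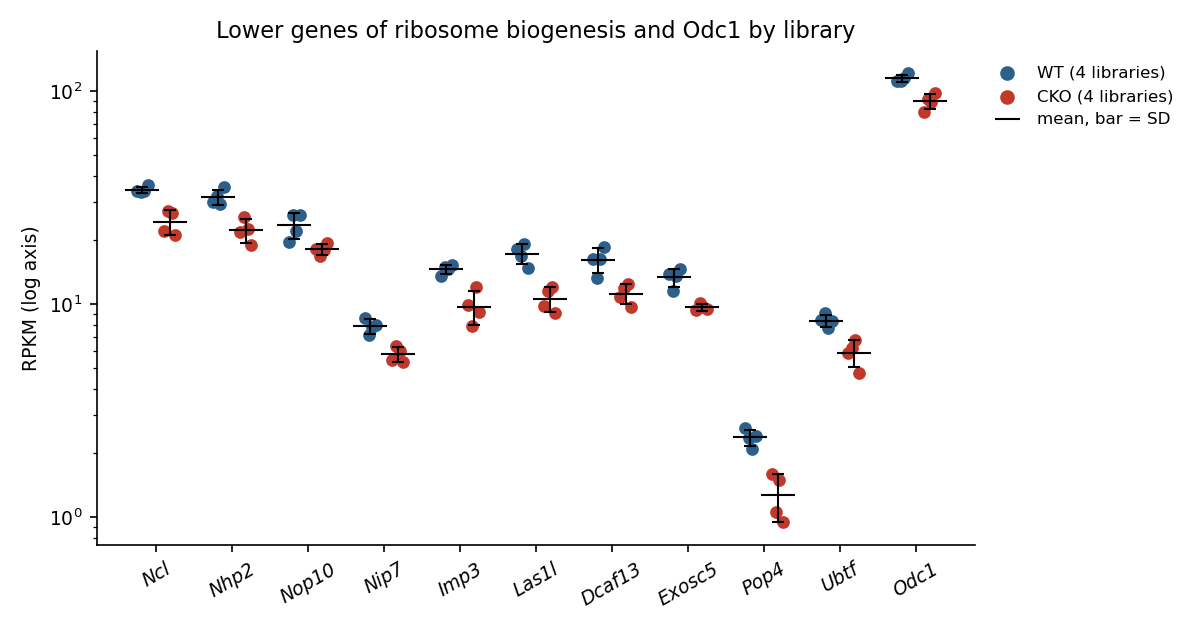
Level in RPKM (log axis) of the ribosome biogenesis genes Ncl, Nhp2, Nop10, Nip7, Imp3, Las1l, Dcaf13, Exosc5, Pop4 and Ubtf and of Odc1 in each library; horizontal marks are means and bars SD (n = 4). In each of these 11 genes, picked as lower genes at or near the threshold, every CKO library lies below every WT library, as in 16.2% of all tested genes; Nop10 and Nip7 did not pass the threshold.

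The direction of small changes depended on the scaling. Over all tested genes 121 rose and 489 fell (19.8% higher), against 305 and 267 (53.3% higher) with median centring, 202 and 246 (45.1% higher) with scaling without digestive enzymes and 354 and 242 (59.4% higher) with the length trend removed. Median centring moved the median change of all tested genes from -0.12 to -0.02. Of the 40 genes, 2 rose and 1 fell with median centring, 1 rose and 2 fell with scaling without digestive enzymes, and 3 rose and 1 fell with the length trend removed. Of the further pathway genes, the small subunit kinase Riok2 and Cad, an enzyme of pyrimidine synthesis, rose with median centring (0.35 and 0.48, limma adjusted p = 0.0315 and 0.0409) and with the length trend removed (0.36 and 0.40, adjusted p = 0.0246 and 0.0491).

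Markers of cell types were measured in the same tissue RNA, in which fewer cells of a type and less RNA per cell cannot be told apart. Acinar markers, which define the labelled tissue, were abundant, with a summed level of 336100 to 389870 RPKM in CKO and 341340 to 374820 RPKM in WT, and 1 of 15 fell. Monocyte and macrophage markers summed to 209 to 416 RPKM in CKO and 377 to 714 RPKM in WT, with none of 14 at 0; all 13 tested genes were below 0, of which 2 fell and 9 were lower at an unadjusted p under 0.05. Duct markers summed to 2417 to 3836 against 3740 to 3904 RPKM (all 8 tested below 0, 1 fell, 5 lower at an unadjusted p under 0.05), and islet markers to 1309 to 2059 against 859 to 1651 RPKM (all 10 above 0, 1 rose, 6 higher at an unadjusted p under 0.05). Endothelial markers (1 of 7 fell) and neutrophil (0 of 7), fibroblast (0 of 9) and adipocyte (0 of 3) markers were tested too, the last 3 lists with 0 calls in limma and limma-voom and 2 genes, both of neutrophils, lower at an unadjusted p under 0.05, and none of the lymphocyte markers was high enough to be tested. WT2 had the highest sums of macrophage, lymphocyte, fibroblast, endothelial and adipocyte markers, the lowest Myc level and the highest Mxd1 level. Without WT2 the log2 change of Myc was 0.85 (limma adjusted p = 0.0160) and that of Mxd1 was -0.44 (adjusted p = 0.115). CKO1 had the lowest macrophage sum and the lowest Mxd1 level of all libraries, and the lowest Myc level of the CKO libraries.

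Cycling cell markers were measured at low levels. Their 10 genes summed to 4.57 to 6.79 RPKM in CKO and 0.446 to 2.27 RPKM in WT, with no overlap. CKO4 had the highest sum and the highest Myc level of all libraries. Among the controls WT2 had the highest sum and the lowest Myc level. Bub1, Plk1 and Ccna2 were at 0 in at least 1 WT library. None reached the minimum level for the main test. With no filter on low values 7 of the 10 rose and 0 fell by limma, with a median log2 change of 0.50, against 0.675% of all 16888 genes higher and 2.07% lower in that fit. Aurkb, Bub1 and Cdk1 did not pass, and the log2 change of Cdk1 was -0.0028 (adjusted p = 0.989). Top2a, chosen after its values were seen, was at 0.940 to 1.48 RPKM in CKO and at most 0.375 RPKM in WT. The part of macrophage, duct, islet or cycling cells in the levels of Myc, Mxd1, Ncl and Nhp2 was not tested.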

How the data were processed

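Pancreas RNA of 8 libraries, 4 CKO and 4 WT, was analysed from 1 deposited table. The authors deposited RPKM values, a unit read from the numbers: 16049 of 16068 genes above 0 in at least 2 libraries (99.9%) gave whole reads within 0.05 reads at 1 library total per column and a whole gene length. A length recovered in this way can differ from that of the authors by a whole factor, and the recovered reads then differ by the same factor. Some lengths exceeded all annotated exon bases of the gene in GENCODE M21. Among them were Rrp12 (7688 against 4340 bases), Mnt (7929 against 4627), Nop56 (5807 against 4099) and Ubtf (10082 against 6552). The build was mm10, per the submitters' processing notes; the sources used here do not name the aligner, counter, strand setting or annotation. A further unnamed column (1 with values) was not used. The comparison used limma 3.58.1 in R 4.3.3 on log2(RPKM + 1), with a mean trend and robust variances, genes reaching 1 RPKM in 4 or more libraries, group as the only term, and Benjamini-Hochberg adjustment over all 8513 tested genes. Python 3.11.15 with pandas 2.3.3, Matplotlib 3.10.9 and NumPy 2.4.6 served for tables, sequences and plots. GENCODE M21 (mm10) gave gene positions and RefSeq (GRCm38.p6) promoters. The design allowed for raw counts; the table held RPKM, so the test for normalized values was used.

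The members, gene lists and settings were chosen with earlier results of these data known. All 40 members are named; of each pathway list, those past the threshold, or the 1 of smallest p. Other settings were no filter on low values, a pseudocount of 0.1, at least 5 RPKM in at least 4 libraries, variances without a trend, a replicate block, median centring, scaling without digestive enzymes, limma-voom on recovered reads and leaving out each library; removal of the length trend was added after seeing the data. On simulated data for CKO against WT with 8388 genes tested, 46.8% of genes planted at a 1.5-fold change, 97.0% at 2-fold and 100% at 4-fold passed, with 5 unchanged genes called. The simulation gave every gene the same variability beyond counting error. It had no shift between libraries and no length trend, so these rates may not hold for the real libraries.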

Additional observations from a re-analysis of the deposited data

Results flagged for a closer look

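In 7 of 98 groups of 4 libraries examined for the named genes, 1 library lay far from the other 3 relative to the range of the group; chance alone marks about 1 in 20 groups, or 4.9 of 98. CKO1 was the low library for Tsr1 (11.1 RPKM, the others 16.1 to 16.6), Wdr43 (11.7 RPKM, the others 17.1 to 18.2) and Rrp12 (3.84 RPKM, the others 4.68 to 4.82), all of which act on the small subunit. WT4 was the high library for Ncl (36.0 RPKM, the others 33.6 to 33.96), Npm1 (151 RPKM, the others 126 to 130) and Max (10.7 RPKM, the others 8.69 to 9.02). CKO4 was the low library for Max (6.31 RPKM, the others 8.34 to 8.38).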

How the results depend on the processing

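Myc kept its direction and its call under every setting tried. The labels do not say whether equal replicate numbers pair the samples. The deviations of same-numbered samples from their group means correlated at -0.12, -0.32, 0.14 and 0.03 for numbers 1 to 4. These correlations cannot decide whether the samples were paired. With the replicate block 548 genes passed (110 higher), 3 of the 40 members, without Mxd1 (adjusted p = 0.0711), and 3 pathway genes. The count over all genes became 360 with at least 5 RPKM, where fewer genes (4127) were tested, and ran from 223 (without WT1) to 705 (without CKO1) when each library was left out; it was 235 without CKO2, 279 without CKO4, 271 without WT2, 326 without WT3 and 280 without WT4. The member count became 2 (Myc and Ncl) with no filter on low values and ran from 1 to 4 without each library: 1 (Myc) without CKO4, WT1, WT2 or WT4, and 2 without WT3. The pathway count of 7 was 3 under 5 settings besides the block. With no filter, limma-voom and scaling without digestive enzymes all 3 were among the 7; with median centring and with the length trend removed 1 was (Las1l), and the other 2, Riok2 and Cad, were higher in CKO. The count was 8 with at least 5 RPKM, of which 6 were among the 7, and ran from 1 to 7 without each library (1 without CKO2 or WT1, 2 without CKO4, WT3 or WT4, 4 without CKO1 or WT2); the cause was not tested. Some changes turned sign, none of them past the threshold on either side. With the length trend removed Fbl went from -0.20 to 0.0037 and Rrp9 from -0.18 to 0.012, and Bysl was at 0.088, Ltv1 at 0.11 and Pes1 at 0.069; with median centring Bysl was at 0.10, Ltv1 at 0.066 and Pes1 at 0.048; with scaling without digestive enzymes they were at 0.10, 0.080 and 0.065. Without each library in turn, signs turned for Bysl (-0.066 to 0.039), Ddx21 (-0.045 to 0.081), Gnl3 (-0.046 to 0.091), Ltv1 (-0.092 to 0.025), Mnt (-0.055 to 0.25), Mxd4 (-0.024 to 0.24), Nop58 (-0.15 to 0.12), Pes1 (-0.097 to 0.023) and Polr1a (-0.017 to 0.18). In the simulation, which was simpler than these libraries, 46.8% of the genes planted at a 1.5-fold change passed. Some smaller differences passed here, such as Odc1, whose mean in WT was 1.28 times that in CKO.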

Other observations

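Of the 40 genes, 7 are tagged in GENCODE M21 as hosts of small noncoding RNAs: Ncl, Nop56, Nop58, Dkc1, Wdr43, Tsr1 and Gnl3. Their median log2 change was -0.14, with 4 of 7 below 0, against -0.04 and 18 of 33 for the others. Ncl, whose introns carry snoRNAs, is the only host that fell, and the sources used here do not say whether reads of the hosted RNAs were counted with it. Utp14a shares 11.5% of its annotated exon bases with the gene 9530027J09Rik on the opposite strand.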
